A study of Mus musculus with 3 samples.

Results

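Uncommitted nephron progenitors of the cap mesenchyme made up 726 of the 5110 cells with 500 or more detected genes in 3 single-cell RNA libraries of embryonic mouse kidney. Members were chosen by the detection of 9 transcripts: a cell was counted as a progenitor if it held at least 3 of the 6 marker transcripts Cited1, Six2, Crym, Spock2, Meox1 and Eya1 and none of Wnt4, Lhx1 and Fgf8. Detected means 1 or more unique molecular identifiers (UMIs, tags that mark single transcript molecules) in Drop-seq and 10X, and 20 or more reads in Fluidigm C1. Wild-type E14.5 embryonic kidneys, of a mixed strain that was mostly CD-1 and 129, were profiled on these 3 platforms, with 1 library each and no genetic or drug treatment. Drop-seq and 10X isolate cells in droplets and count UMIs, whereas C1 captures cells in chambers of a chip and its table holds reads. The sources used here do not say how many embryos went into each library. The series compares what the platforms detect and asks which cells transcribe Gdnf.

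The cap mesenchyme surrounds each tip of the branching ureteric epithelium and supplies every nephron of the kidney. Its uncommitted cells renew under the transcription factor Six2 and signals such as Fgf9, Fgf20 and Bmp7, and they release Gdnf, which acts through Ret on the ureteric tip to make it branch. A Wnt9b signal from the tip pushes some of them to switch on Fgf8, Wnt4 and Lhx1, to condense into a pretubular aggregate and to become epithelium under Notch signals. Cited1 marks the least committed progenitors and is lost first along this path.

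In Drop-seq, 388 of 1964 cells met the rule (19.8%, exact 95% binomial interval 18.0 to 21.6%). In 10X, 173 of 2252 cells did (7.68%, 6.62 to 8.86%), and in C1 165 cells did (18.5%, 16.0 to 21.2%). The 10X interval lay below the other two, which overlapped. These intervals, and those below, cover counting error only, and with 1 library per platform a difference between platforms was not tested. The C1 cells carry either of a pair of name tags, HT and E14, which the sources used here do not explain. The HT cells held 119 progenitors of 562 (21.2%, 17.9 to 24.8%) and the E14 cells 46 of 332 (13.9%, 10.3 to 18.0%). A further 288 cells carried 3 or more of the markers together with Wnt4, Lhx1 or Fgf8, 185 of them from Drop-seq, 64 from 10X and 39 from C1. Uncommitted here means that these genes were not detected. C1 progenitors still held 127 Wnt4, 88 Lhx1 and 183 Fgf8 reads in sum. At a cutoff of 1 read, 239 C1 cells were marker-positive with an excluded gene. In Drop-seq the share of such cells fell from 9.42% to 3.01% after thinning to 4000 UMIs. The rule depends on depth: after thinning each cell to 4000 UMIs, or 50000 reads in C1, it found 14.8% of the cells for Drop-seq, 6.95% for 10X and 2.46% for C1. No cell barcode was shared between libraries.

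**Figure D1:**
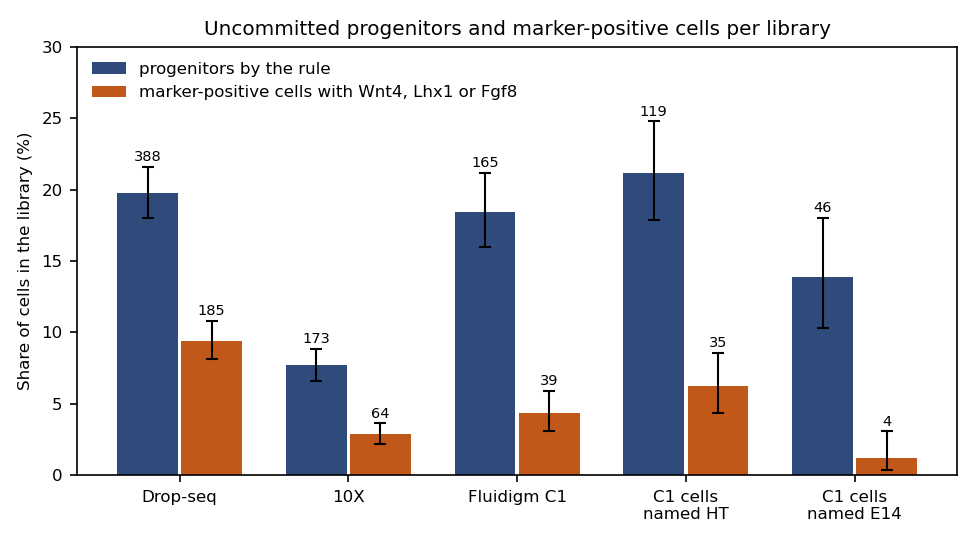
Share of cells (%) that were progenitors by the rule (blue) or marker-positive cells with Wnt4, Lhx1 or Fgf8 (orange), with exact 95% binomial intervals and the number of cells above each bar. Drop-seq stands at 19.8% progenitors, 10X at 7.68% and C1 at 18.5%, and the right-hand pairs split C1 by name tag.

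Each of the 6 markers chose the members, so their levels are given as a description, with no test. Levels here are CPM, the counts summed over all cells of a class in a library and scaled to the same total for every class. Cited1, a transcriptional co-regulator, reached 573 CPM in progenitors of Drop-seq, 775 in 10X and 1420 in C1, against 92.9, 39.1 and 288 in all other cells. Six2 reached 96.2, 184 and 195 CPM against 15.3, 10.1 and 32.6. Eya1, a co-activator that partners Six2, reached 122, 123 and 175 CPM against 25.3, 8.09 and 28.1. For these 3 genes the progenitors stood above the other cells in every library, with the largest ratio in 10X. Crym, which encodes a thyroid hormone binding protein, reached 408, 386 and 380 CPM against 69.9, 21.5 and 69.6. Spock2, a secreted proteoglycan, reached 329 CPM in Drop-seq and 164 in 10X but 24.8 in C1, against 72.1, 11.6 and 4.57. Meox1, a homeobox factor, reached 69.2, 85.5 and 24.95 CPM against 11.6, 11.4 and 7.01. Spock2 and Meox1 were thus low in C1 in both groups of cells, and C1 cells met the rule mostly through the other 4 markers.

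The 6 marker genes lie on separate chromosomes of the mouse build mm10 in the GENCODE annotation. Cited1 lies on chromosome X from 102247381 to 102252181, Six2 on chromosome 17 from 85684277 to 85688274 and Crym on chromosome 7 from 120186380 to 120202111, all on the minus strand. Meox1 lies on chromosome 11 from 101877510 to 101894374 and Eya1 on chromosome 1 from 14168954 to 14310235, on the minus strand, and the plus strand holds Spock2, on chromosome 10 from 60106219 to 60135198. None of their exonic bases overlapped another annotated gene.

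Progenitors differed in how many markers were seen in a cell. In Drop-seq, 139 of the 388 held 3 markers, 144 held 4, 82 held 5 and 23 held all 6. In 10X, 31 of 173 held 3, 54 held 4, 59 held 5 and 29 all 6. In C1, 90 of 165 held 3, 64 held 4, 11 held 5 and 0 all 6. The most frequent sets were Cited1, Crym and Spock2 in Drop-seq (52 cells), all 6 in 10X (29 cells) and Cited1, Six2, Crym and Eya1 in C1 (54 cells). Crym was detected in 91.8%, 90.2% and 95.2% of progenitors in Drop-seq, 10X and C1, and Cited1 in 86.3%, 93.6% and 96.4%. Six2 was detected in 47.7%, 72.8% and 72.7%. Crym and Cited1 were therefore the transcripts most progenitors had in common, while Six2 went undetected in many of them, most often in Drop-seq.

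**Figure D2:**
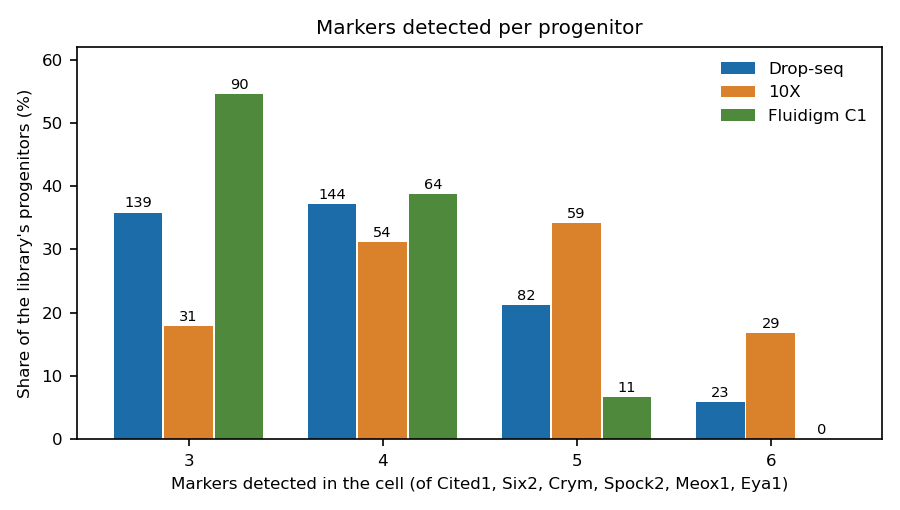
Share of each library's progenitors (%) by the number of the 6 markers detected in the cell, with the number of cells above each bar. 10X progenitors peak at 5 markers with 59 cells, and C1 progenitors at 3 with 90 cells.

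Some transcripts of the markers were also detected in cells chosen by endothelial markers, and their source was not tested. Endothelial cells, taken as cells with 3 or more of 7 endothelial markers and fewer than 3 progenitor markers, held Cited1 in 3.92% of 102 cells in Drop-seq, 5.04% of 417 in 10X and 18.6% of 43 in C1. Their median depth was 6830.5 UMIs, 8485 UMIs and 228992 reads, against 7343 UMIs, 8465 UMIs and 209467 reads in progenitors. Six2 was detected in 0.980%, 0.959% and 2.33% of the endothelial cells and Crym in 2.94%, 3.12% and 6.98%. Because both classes were defined by how many of these markers a cell held, the shares are given as a description. Of the 3 markers given, Cited1 had the highest share in the endothelial cells of each library, and its share was highest in C1.

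Cells next to the threshold of the rule are given as a description, with no test. Cells with exactly 3 markers and none of the excluded genes, just inside, numbered 139, 31 and 90 in Drop-seq, 10X and C1, and cells with 2, just outside, 79, 43 and 92. Cited1 stood at 394, 453 and 1274 CPM inside and 212, 157 and 1073 outside. Uncx, a homeobox gene that the rule did not use, stood at 257, 189 and 42.0 CPM inside and at 201, 47.9 and 35.9 outside. Osr1, a zinc finger factor of early kidney mesenchyme, stood at 80.6, 83.2 and 78.7 CPM inside and at 56.0, 24.0 and 82.6 outside. Gdnf stood at 47.8, 27.7 and 32.2 CPM inside and at 36.7, 24.0 and 21.7 outside. Uncx and Hoxd11 were thus higher inside in each library, whereas Osr1 was not in C1. Gdnf was higher inside in Drop-seq and C1, but in 10X it rested on 6 UMIs inside and 7 outside. Other genes ran the opposite way in Drop-seq: Wt1 stood at 88.6 CPM inside and 108 outside, Itga8 at 71.7 and 86.9, and Sall1 at 55.7 and 61.8. In C1, Sall1 (72.7 and 74.8), Bmp7 (19.3 and 24.3) and Pax2 (6.36 and 6.83) were lower inside. The marker Meox1 was lower inside in 10X (37.0 and 47.9) and in C1 (11.2 and 20.7).

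Progenitors were then compared with all other cells of their own library, to describe what else sets them apart. Because the cells were drawn by 9 of their own transcripts, a gene that varies with those from cell to cell differs through that choice, and the calls below describe the contrast. The sums for each class and library were tested in edgeR's quasi-likelihood fit with the library as a block, over 12831 genes without the 9 of the rule. The p-value sets a difference against the spread between 3 libraries that each come from their own platform. At a Benjamini-Hochberg adjusted p under 0.05, 623 genes (4.86%) were higher in progenitors and 909 (7.08%) were lower, 11.9% of those tested. The median log2 fold change over all genes tested was 0.02. Counts given below for gene lists are to be set beside these shares of 4.86% and 7.08%. Without Drop-seq the counts were 223 higher and 417 lower, without 10X 425 and 757, and without C1 634 and 1101. With a C1 detection cutoff of 1 read they were 25 and 136, and with 100 reads 22 and 62.

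Regulators of the progenitor state moved both ways, with more of them higher than lower in progenitors. Of 24 tested transcription factors and chromatin proteins of the progenitor list, 10 rose, 3 fell and 11 did not pass, and their median log2 fold change was 0.87. Wt1, a zinc finger factor needed to form a kidney, stood at 114, 181 and 96.7 CPM in progenitors of Drop-seq, 10X and C1, and at 70.6, 76.9 and 57.4 CPM in other cells. It was higher in progenitors in all 3 libraries (log2 fold change 0.98, SE 0.13, edgeR adjusted p = 0.00183). Hoxd11, one of the Hox11 genes that kidney induction requires, stood at 104, 152 and 110 CPM against 54.4, 59.2 and 61.98 (1.12, SE 0.13, adjusted p = 0.000703). Its paralog Hoxa11 stood at 136, 37.4 and 33.6 CPM against 63.2, 9.41 and 15.1 (1.42, SE 0.18, adjusted p = 0.00198). The fitted levels of these Hox11 genes were 2.18- and 2.68-fold higher in progenitors. Hoxa11 shares 35.0% of its exonic bases with the antisense gene Hoxa11os, and since it is not given whether strand was used in counting, its value is uncertain. Hoxd10 rose as well (1.03, SE 0.15, adjusted p = 0.00206), and the remaining regulators that rose, named after their values were seen, were Hoxa10, Hoxc10, Hoxc9 and Hmga2. Sall1, a zinc finger factor that keeps progenitors from early differentiation, stood at 76.0, 87.5 and 106 CPM against 52.6, 33.9 and 74.4 (0.86, SE 0.19, adjusted p = 0.0365). Eya4, a relative of Eya1, stood at 29.9, 3.34 and 9.50 CPM against 13.7, 0.724 and 2.92 (1.61, SE 0.30, adjusted p = 0.00845). Its call was lost without Drop-seq (adjusted p = 0.096), while the calls of Wt1, Hoxd11, Hoxa11 and Sall1 held whichever library was left out.

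Several well known progenitor factors had large ratios that did not pass. Osr1 stood at 110, 144 and 114 CPM in progenitors and at 21.6, 11.2 and 27.2 in other cells, a log2 fold change of 2.71 (SE 0.45, edgeR adjusted p = 0.0673). It was higher in progenitors in every library, by log2 ratios of 2.45, 3.86 and 2.08. Uncx stood at 297, 304 and 59.5 CPM against 175, 59.9 and 28.4 (1.46, SE 0.45, adjusted p = 0.198). Pax2, a paired-box factor of both the mesenchyme and the ureteric epithelium, stood at 245, 167 and 11.3 CPM against 200.1, 58.0 and 7.24 (0.89, SE 0.29, adjusted p = 0.164). For these genes the direction was the same in the 3 libraries but the size was not, with the largest ratio in 10X each time. The 3 regulators that fell were Emx2, Dach1 and Trps1. Emx2, a homeobox gene of ureteric and nephron epithelium, stood at 9.37, 6.01 and 4.02 CPM against 185, 63.9 and 22.9 (-3.15, SE 0.35, adjusted p = 0.00811), and its call was lost without 10X (adjusted p = 0.16). Dach1 and Trps1 had log2 fold changes of -0.91 and -0.78, and both calls were lost without Drop-seq (adjusted p = 0.055 and 0.12), and that of Trps1 also without 10X (adjusted p = 0.0528).

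**Figure D3:**
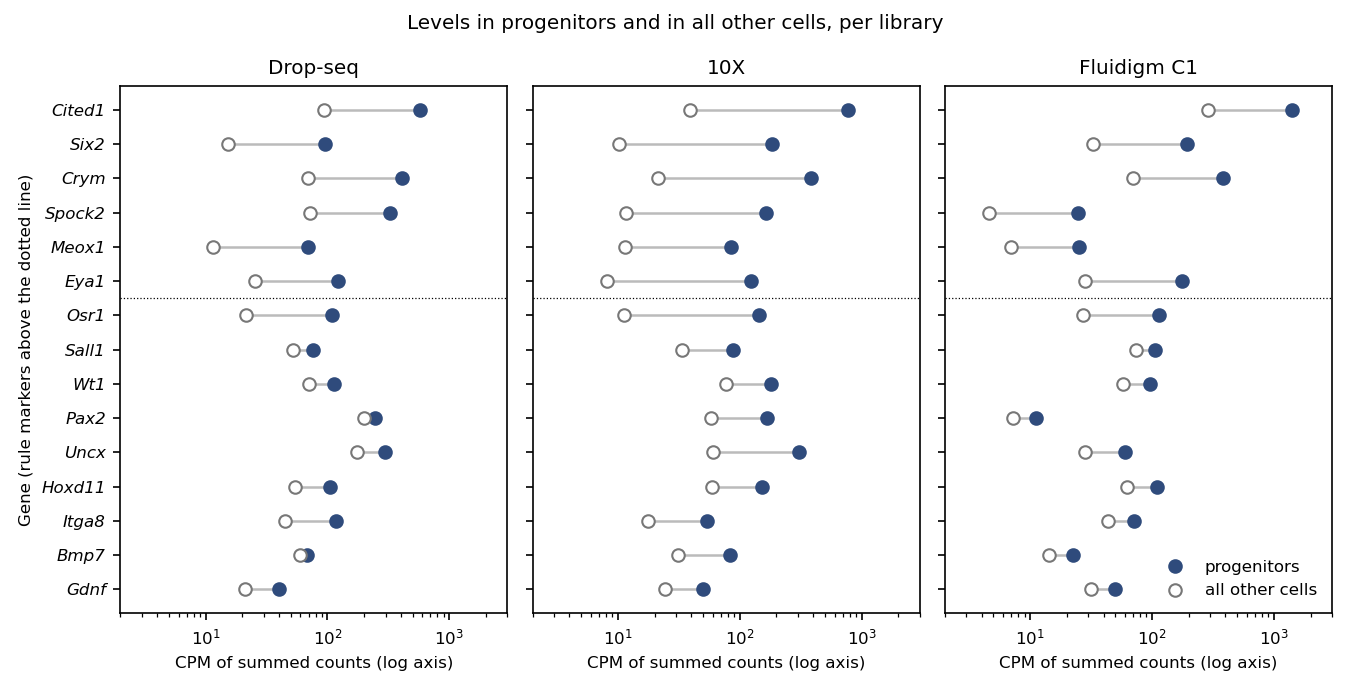
CPM of counts summed per library (log axis) in progenitors (filled) and in all other cells (open) for the 6 markers of the rule and 9 further genes. All 15 genes sit to the right in progenitors in each of the 3 panels, with the smallest gap for Bmp7 in Drop-seq (68.1 against 59.4 CPM).

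Among 12 tested growth regulators, 4 rose and 2 fell, with a median log2 fold change of 0.13. Phf19, a subunit that helps the Polycomb complex to reach chromatin, stood at 56.6, 32.7 and 38.2 CPM in progenitors and at 11.7, 4.41 and 10.2 CPM in other cells. That is 5.16-fold higher in the fit (log2 2.37, SE 0.22, edgeR adjusted p = 0.000244), and the call held whichever library was left out. Myc rose by a log2 fold change of 0.68 (SE 0.12, adjusted p = 0.00596), Sox4 by 0.62 (SE 0.13, adjusted p = 0.0282) and Igf1r, the receptor of insulin-like growth factors, by 0.50 (SE 0.10, adjusted p = 0.0115). These 3 calls were lost without Drop-seq, at adjusted p = 0.13, 0.062 and 0.0895. Igf2, a fetal growth factor, stood at 800, 81.5 and 505 CPM against 1049, 144 and 692 and was lower in progenitors (-0.44, SE 0.09, adjusted p = 0.0114). Igf2r, which clears Igf2, was lower as well (-0.58, SE 0.15, adjusted p = 0.0354), but not without Drop-seq (adjusted p = 0.21) or without 10X (adjusted p = 0.12). In the fit over all libraries Igf1r was higher in progenitors while Igf2 and Igf2r were lower. Among C1 E14 cells Igf1r and Sox4 ran the other way, at 76.6 and 33.9 CPM in progenitors against 82.7 and 42.1. Among HT cells both were higher in progenitors, at 115 and 83.8 CPM against 74.9 and 68.1. Sox4 and Igf2 share 54.6% and 64.5% of their exonic bases with other annotated genes, which makes their values uncertain.

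Surface and matrix genes were split. Of 30 tested, 5 rose, 6 fell and 19 did not pass, with a median of 0.08. Kif26b, a kinesin that holds cap mesenchyme cells together, stood at 18.7, 84.8 and 28.0 CPM against 5.36, 12.3 and 11.3 (2.03, SE 0.32, edgeR adjusted p = 0.0105). Without Drop-seq its adjusted p was 0.069. Itga8, the integrin chain by which the mesenchyme receives a matrix signal from the ureteric bud, stood at 118, 53.4 and 70.5 CPM against 45.0, 17.6 and 43.8 (1.26, SE 0.20, adjusted p = 0.0103). Cdh2, N-cadherin, stood at 157, 78.1 and 87.7 CPM against 81.3, 29.6 and 53.8 (1.07, SE 0.15, adjusted p = 0.00287). Both were higher in progenitors of each library, and their calls held whichever library was left out. Within C1, Itga8 was higher in progenitors among HT cells (88.3 CPM against 49.6) but not among E14 cells (33.3 against 35.1). Col2a1 and Dchs1, a collagen and a large cadherin, rose by 1.63 and 0.64. The call of Col2a1 was lost without Drop-seq (adjusted p = 0.12) and that of Dchs1 without Drop-seq, 10X or C1 (adjusted p = 0.096, 0.057 and 0.11). The genes that fell included the ephrin receptors Epha7 (-1.67, SE 0.16, adjusted p = 0.000268) and Epha4 (-1.37, SE 0.24, adjusted p = 0.00854), P-cadherin Cdh3 (-1.67, SE 0.26, adjusted p = 0.00366), the glypican Gpc4 (-1.71, SE 0.29, adjusted p = 0.00487) and the basement membrane protein Frem2 (-1.40, SE 0.21, adjusted p = 0.00258). Cadherins thus moved both ways, with Cdh2 higher and Cdh3 lower in progenitors, although Cdh3 lost its call without Drop-seq (adjusted p = 0.089). Robo2, a guidance receptor that limits where Gdnf is made, stood at 262, 363 and 179 CPM against 73.2, 45.7 and 56.7 but did not pass (2.23, SE 0.39, adjusted p = 0.0804).

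Of 23 tested genes for secreted or membrane-bound signals, 7 were higher and 8 lower in progenitors, with a median of -0.01. Gdnf stood at 40.3 CPM (95% Poisson interval 33.2 to 48.5) in Drop-seq progenitors, 50.1 (39.4 to 62.8) in 10X and 49.98 (47.7 to 52.3) in C1. In all other cells it stood at 20.96 CPM (18.4 to 23.7), 24.4 (22.0 to 27.0) and 31.6 (30.6 to 32.5). Progenitors were above the other cells in each library (log2 fold change 0.95, SE 0.15, edgeR adjusted p = 0.00395). The intervals did not overlap, but they leave out the spread between cells. Those of C1 are too narrow even for counting error, since reads are not independent molecules. The call was kept in 16 of 20 alternative analyses, among them those that left out a library. Gdnf was detected in 20.1%, 32.4% and 19.4% of progenitors in Drop-seq, 10X and C1, in 11.5%, 11.7% and 9.74% of other cells and in 0%, 1.199% and 4.65% of endothelial cells. The count of 0 in 102 Drop-seq endothelial cells allows a share of up to 3.55% at the upper end of its exact interval. In C1 the name groups differed in size of gap: HT cells had 55.1 CPM in progenitors and 30.7 in others, and E14 cells 39.2 and 32.9.

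Other secreted signals were higher in progenitors too. Rspo1, an R-spondin that amplifies Wnt signals, stood at 61.6, 184 and 72.1 CPM against 20.5, 25.5 and 20.2 (2.18, SE 0.30, edgeR adjusted p = 0.0181). Its call was lost without C1 (adjusted p = 0.075). Pdgfc, a growth factor whose receptor marks stroma, stood at 78.5, 81.5 and 101.3 CPM against 34.2, 20.8 and 39.8 (1.57, SE 0.16, adjusted p = 0.000622). Fgf10 stood at 27.7, 13.4 and 22.5 CPM against 9.56, 2.57 and 10.8 (1.61, SE 0.28, adjusted p = 0.00579). Pdgfc and Fgf10 held whichever library was left out. Fgf20, which keeps progenitors in their state, stood at 21.3, 0.668 and 6.65 CPM against 5.53, 0.132 and 1.98 (1.94, SE 0.41, adjusted p = 0.0138), and Fgf1 rose by 1.95 (SE 0.55, adjusted p = 0.0461). Fgf20 rested on 1 UMI in 10X progenitors, and both calls were lost without Drop-seq (adjusted p = 0.24 and 0.33) and that of Fgf1 also without 10X (adjusted p = 0.17). Bmp7 stood at 68.1, 82.8 and 22.4 CPM against 59.4, 31.3 and 14.3 and did not pass (0.82, SE 0.23, adjusted p = 0.0695), nor did Rspo3 (1.97, SE 0.35, adjusted p = 0.0593). Other signals were lower. The Notch ligand Jag1 stood at 10.1, 3.34 and 17.2 CPM against 60.7, 37.6 and 70.4 (-2.33, SE 0.21, adjusted p = 0.000186), and Dll1 fell by 2.87 on the log2 scale (SE 0.33, adjusted p = 0.000646). Bmp4 fell by 1.18 (SE 0.22, adjusted p = 0.00733), Sfrp2, a secreted Wnt modulator, by 1.04 (SE 0.12, adjusted p = 0.000631) and Wnt5a by 1.32 (SE 0.31, adjusted p = 0.0253). The calls of Bmp4 and Wnt5a were lost without Drop-seq (adjusted p = 0.081 and 0.22), and that of Wnt5a without 10X (adjusted p = 0.061).

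Among 51 tested receptors and response genes, 8 rose and 10 fell, with a median of -0.13. Fzd2, a Wnt receptor, stood at 179, 132 and 73.9 CPM against 89.6, 51.5 and 46.7 (1.07, SE 0.15, edgeR adjusted p = 0.00352). Tcf7l1, a Wnt pathway factor that mostly represses its targets, stood at 79.6, 74.8 and 70.7 CPM against 48.0, 34.3 and 37.5 (1.005, SE 0.12, adjusted p = 0.000814). Lef1, a factor and target of active Wnt signalling, went the other way, at 7.56, 5.34 and 4.05 CPM against 34.9, 12.4 and 20.4 (-2.01, SE 0.27, adjusted p = 0.00143). The R-spondin receptors Lgr5 (-2.21, SE 0.35, adjusted p = 0.00382) and Lgr4 (-1.35, SE 0.16, adjusted p = 0.000625) were lower as well. Within the Wnt pathway progenitors thus held more Fzd2, Tcf7l1 and Rspo1 and less Lef1, Lgr4 and Lgr5 than the other cells. The calls of Fzd2, Tcf7l1, Lef1 and Lgr4 held whichever library was left out, and that of Lgr5 was lost without Drop-seq (adjusted p = 0.058). Acvr2b, a receptor of activins and BMPs, rose by 0.98 (SE 0.14, adjusted p = 0.00203). Gas1, a surface protein that binds Hedgehog and tunes Gdnf signals, stood at 513, 658 and 237 CPM against 166, 114 and 82.6 (1.98, SE 0.29, adjusted p = 0.0482), and was not past the threshold without Drop-seq (adjusted p = 0.087) or C1 (adjusted p = 0.093). Gfra1, the co-receptor of Gdnf, rose by 0.94 (SE 0.22, adjusted p = 0.0295), but not without Drop-seq or C1 (adjusted p = 0.054 and 0.067). Ret, the receptor itself, rested on 2 UMIs in Drop-seq progenitors and 1 in 10X, and stood at 0.720, 0.668 and 5.403 CPM against 13.5, 12.6 and 18.1 (-2.43, SE 0.43, adjusted p = 0.00817). Fgfr3 fell by 1.56 (SE 0.35, adjusted p = 0.0182), a call lost without Drop-seq (adjusted p = 0.076).

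**Figure D4:**
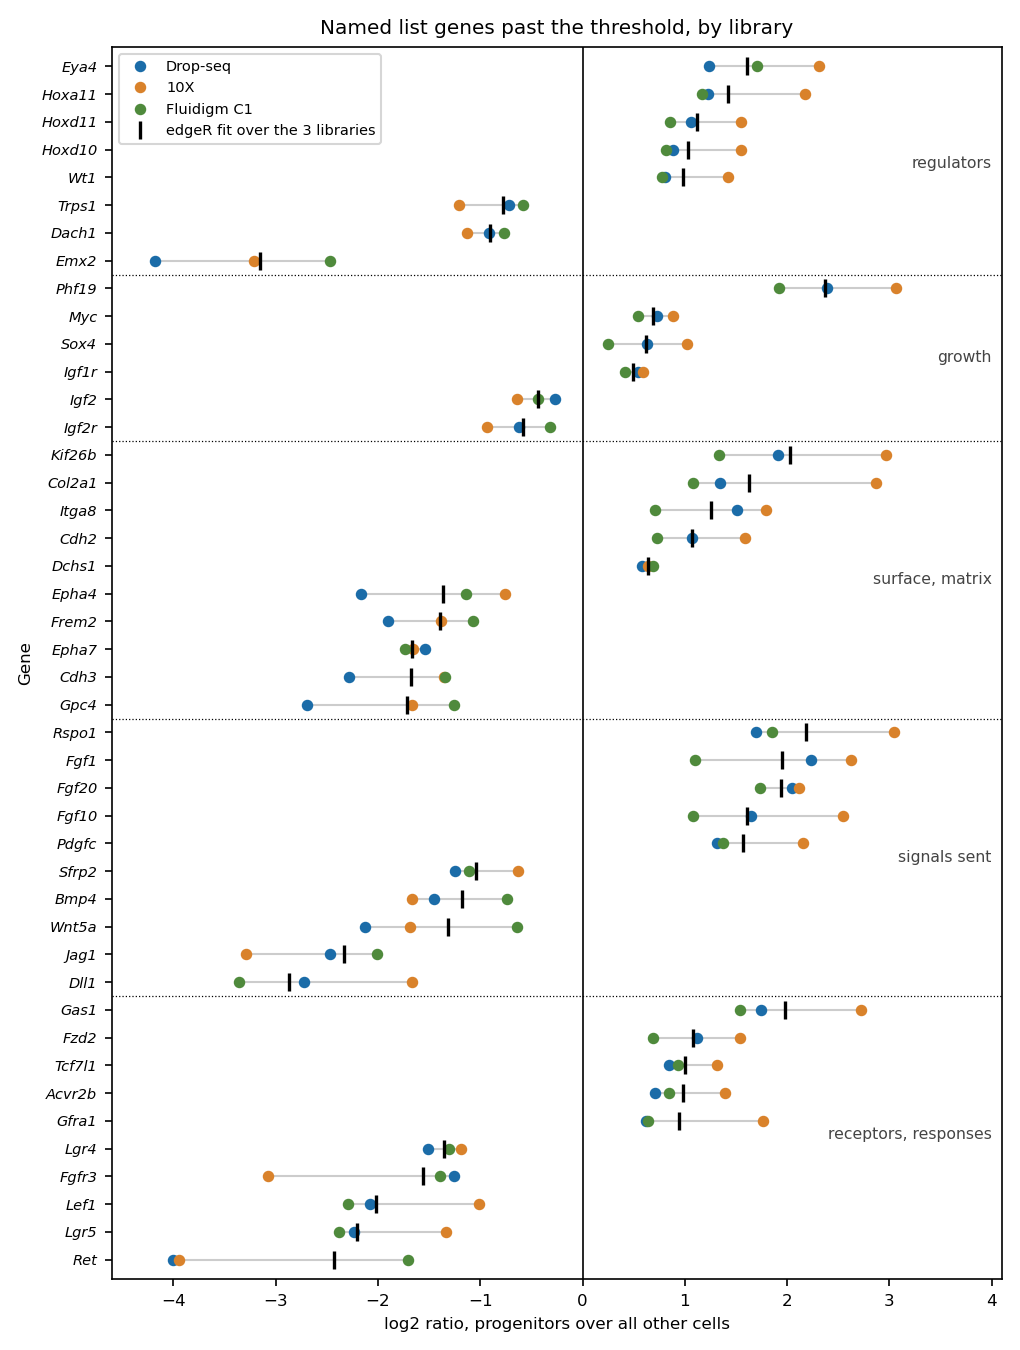
Log2 ratio of progenitors over all other cells in each library (coloured points) and in the fit over the 3 libraries (black bars), for the named genes of 5 lists that passed the threshold. No gene shown has points on both sides of 0, and the 10X point is the farthest to the right for Rspo1, Phf19, Kif26b and Gas1.

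Genes of commitment and epithelium were lower in progenitors. Of 41 tested, without the 3 genes of the rule, 27 fell and 2 rose, with a median log2 fold change of -2.14. Their summed level was 884, 691 and 677 CPM in progenitors of Drop-seq, 10X and C1, against 3608, 2039 and 1712 in other cells. Hes5, a target of Notch, stood at 2.16, 3.34 and 0.407 CPM against 38.7, 19.9 and 11.9 (-4.15, SE 0.40, edgeR adjusted p = 0.000433). Pou3f3, a factor of the nephron tubule, stood at 3.96, 4.01 and 1.49 CPM against 62.3, 24.2 and 14.3 (-3.30, SE 0.26, adjusted p = 0.000153). E-cadherin, Cdh1, stood at 4.32, 6.01 and 3.88 CPM against 53.7, 28.7 and 40.2 (-3.18, SE 0.25, adjusted p = 0.000153). For these 3 genes the progenitors were below the other cells in each library. Npy and Hnf4a, the latter a factor of the proximal tubule, fell by 3.37 and 3.56 (adjusted p = 0.000153 and 0.0154). The calls of these 5 genes held whichever library was left out. The 2 that rose were the forkhead factors Foxc1 (1.0, SE 0.16, adjusted p = 0.00402) and Foxc2 (0.77, SE 0.11, adjusted p = 0.00211). Foxc1 stood at 44.3, 54.8 and 56.0 CPM against 25.6, 22.3 and 33.9. Both forkhead genes are also known from podocytes and stroma.

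Markers of other kidney cells were checked in the progenitors. The 17 ureteric genes summed to 116, 112 and 294 CPM in progenitors against 1404, 976 and 856 in other cells, 7 of them fell and 0 rose. The 19 stromal genes summed to 1638, 1651 and 1790 CPM against 1680, 2704 and 2937, and 10 fell while Meis2 and Tcf4 rose, the first not without 10X (adjusted p = 0.2) and the second not without Drop-seq (adjusted p = 0.17). The stromal sum in progenitors was close to that of other cells in Drop-seq, but Meis2 and Tcf4 made up much of it. They stood at 510 and 280 CPM in the Drop-seq progenitors with Cited1 detected. By CPM, 14, 16 and 17 of the 19 genes were lower in progenitors of Drop-seq, 10X and C1. No stromal gene was at 0 in the progenitors of any library. Cells with 3 or more stromal genes made up 73.2%, 72.3% and 56.4% of progenitors, against 61.5%, 67.6% and 62.8% of other cells. The 12 endothelial genes summed to 304, 271 and 517 CPM against 407, 1400 and 578, with Tie1 and Flt1 at 0 in 10X progenitors. Of the 12, 1 fell (Tek) and 0 rose, where 7.08% of all genes tested fell. The call of Tek was lost without Drop-seq (edgeR adjusted p = 0.068). Ramp2 ran the opposite way in C1, at 189 CPM against 130 in HT cells and 234 against 125 in E14 cells. It made up much of the endothelial sum, at 200, 218 and 206 CPM in the progenitors with Cited1 detected. By CPM, 11, 12 and 11 of the 12 endothelial genes were lower in progenitors. The 9 podocyte genes summed to 852, 1060 and 628 CPM against 733, 1393 and 649, higher in Drop-seq progenitors. Most of that sum was Cdkn1c, at 852, 1049 and 614 CPM in the progenitors with Cited1 detected. By CPM, 7, 9 and 8 of the 9 genes were lower in progenitors, and Nphs1 and Ptpro were at 0 in both UMI libraries. Of the 11 immune genes, Ptprc was at 0 in both UMI libraries, and the sums were 7.56 and 8.01 CPM in Drop-seq and 10X against 80.6 and 210. In C1 the immune sum was 122 CPM in progenitors against 89.6 in other cells, and 97.4% of those reads came from 1 of the 165 cells. The 8 erythroid genes summed to 2714, 22.7 and 2.96 CPM against 10896, 411 and 363. In Drop-seq 76.0% of progenitors and 74.0% of other cells held 3 or more of them, against 1.16% and 1.25% in 10X and 0% and 0.274% in C1. What part such transcripts have in the calls was not tested.

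General programmes were counted in the same way. Over all genes tested 4.86% rose and 7.08% fell, so a count of 1 in 20 is near those shares. Of 20 S-phase genes 1 rose (Mcm6) and 0 fell, and of 20 G2/M genes 0 rose and 1 fell (Ccnb2, whose call was lost without Drop-seq, 10X or C1, at adjusted p = 0.084, 0.053 and 0.06). The S-phase genes had a median log2 fold change of 0.20 and the G2/M genes of -0.14. Mcm6, part of the replicative helicase, stood at 241, 157 and 393 CPM against 191, 139 and 296 (0.41, SE 0.08, edgeR adjusted p = 0.00861), a call lost without Drop-seq (adjusted p = 0.13). Of 18 glycolysis genes 5 rose and 1 fell, with a median of 0.20. The lactate transporter Slc16a3 stood at 40.3, 44.1 and 20.6 CPM against 20.4, 20.7 and 11.03 (1.07, SE 0.16, adjusted p = 0.00257) and held whichever library was left out. Hexokinase Hk2 rose by 0.63 (SE 0.17, adjusted p = 0.0354), a call lost without Drop-seq, 10X or C1 (adjusted p = 0.13, 0.065 and 0.057), whereas Gapdh (0.20, adjusted p = 0.15) and Ldha (0.16, adjusted p = 0.254) did not pass. Of 15 imprinted growth genes 3 rose and 6 fell. Peg3 stood at 445, 424 and 104 CPM against 281, 228 and 60.8 (0.87, SE 0.08, adjusted p = 0.000244), and Grb10, an adaptor that dampens insulin receptor signals, at 517, 312 and 681 against 308, 169 and 441 (0.85, SE 0.09, adjusted p = 0.000395). Meg3 (-0.86, SE 0.10, adjusted p = 0.000591), Dlk1 (-1.03, SE 0.14, adjusted p = 0.00233), Plagl1 (-0.88, SE 0.11, adjusted p = 0.0012) and Sgce (-1.46, SE 0.24, adjusted p = 0.00517) were lower. Imprinted genes thus moved both ways, and the calls of these 6 held whichever library was left out. Of 20 dissociation stress genes 1 rose and 3 fell, with a median of -0.16.

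Outside the lists, the largest rises that had the same direction in the 3 libraries belonged to genes of low level. Nell1, a secreted protein with EGF-like repeats, stood at 42.5, 29.4 and 35.5 CPM in progenitors against 10.4, 3.16 and 4.598 (2.80, SE 0.25, edgeR adjusted p = 0.00019). It was past the threshold in 19 of 20 alternative analyses. Traf1, an adaptor of TNF receptors, stood at 20.9, 44.7 and 33.9 CPM against 3.44, 3.68 and 5.88 (2.96, SE 0.26, adjusted p = 0.000211). Rasef, a Rab-type GTPase, stood at 28.8, 10.7 and 27.6 CPM against 5.78, 0.855 and 4.23 (2.82, SE 0.29, adjusted p = 0.000344). Each of these 3 was higher in progenitors of every library by a log2 ratio above 2. Colq, a collagen-like anchor of acetylcholinesterase (3.18), Pnmt, the enzyme that makes adrenaline (3.14), Ocm, a calcium-binding protein (3.08), Siglecg, a sialic acid-binding lectin best known from B cells (2.69), and Acoxl (2.81) had adjusted p from 0.00134 to 0.0354. Among these 8 genes only Acoxl lost its call when a library was left out, at adjusted p = 0.1 without 10X and 0.16 without C1. The 8 largest falls were genes with 0 counts in progenitors of all libraries, so that only a bound can be given. With a floor of 3 counts per library, Cldn16, a claudin of the thick ascending limb, was at least 3.88-fold lower in Drop-seq, 1.94-fold in 10X and 23.7-fold in C1. Fgf15, Rnf186, Mep1b, Oit1, Dock8, Plcb2 and Rhbg were at least 1.32- to 2.95-fold lower in Drop-seq and at least 13.4- to 34.9-fold lower in C1, and in 10X the other cells were under that floor as well. These 8 genes passed the filter on low counts through the other cells alone, so their calls are not used as support. Rnf186, Mep1b, Oit1, Dock8, Plcb2 and Rhbg also lost theirs when at least 1 library was left out. Fgf15, Oit1 and Plcb2 were not tested without C1.

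By the rule, the closest cells to the progenitors are the 288 that carry 3 or more markers and also Wnt4, Lhx1 or Fgf8. They were compared to describe what differs once a commitment transcript is present, over 9 sums and 13021 genes, with the progenitor sums shared with the comparison above. At the same threshold, 20 genes (0.154%) were higher in progenitors and 73 (0.561%) lower, 0.714% of those tested. The median log2 fold change over all genes was 0.06. The cells with a commitment transcript were deeper, with medians of 10882 UMIs, 11036 UMIs and 270049 reads against 7343, 8465 and 209467. In Drop-seq, 3 of the 5 barcodes of highest count were among them, the deepest with 325686 UMIs. The 17 ureteric genes summed to 1395, 252 and 641 CPM in the cells with a commitment transcript, against 116, 112 and 294 in progenitors. What part ureteric transcripts have in the calls was not tested. With all cells thinned to equal depth, 10 genes were higher and 48 lower, and 38 of the 93 calls were shared. Without 10X 1 gene was higher and 28 lower, without Drop-seq 6 and 32, and without C1 18 and 129. With the C1 name groups as separate blocks no gene passed in edgeR (784 genes at an unadjusted p under 0.05), and 4 of the 39 C1 cells with a commitment transcript were in the E14 group.

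Of the 40 commitment genes tested, 14 were lower in progenitors and 0 higher, with a median log2 fold change of -1.51. Over all genes tested 0.561% were lower and 0.154% higher. Clec18a, a C-type lectin, stood at 9.01, 5.34 and 6.41 CPM in progenitors of Drop-seq, 10X and C1 and at 44.7, 57.5 and 50.5 CPM in the cells with a commitment transcript. It was lower in progenitors than in the neighbours in each library (-2.84, SE 0.25, edgeR adjusted p = 0.000163). Npy, a neuropeptide, stood at 3.96, 2.003 and 2.06 CPM against 31.1, 23.3 and 31.4 (-3.57, SE 0.33, adjusted p = 0.000268). Jag1 stood at 10.1, 3.34 and 17.2 CPM against 47.2, 32.8 and 82.2 (-2.28, SE 0.23, adjusted p = 0.0004). The calls of these 3 genes and of Cdh1 (-2.80, SE 0.35, adjusted p = 0.00383) held whichever library was left out. The Notch genes Hes5 (-3.13, SE 0.47, adjusted p = 0.00767), Dll1 (-2.36, SE 0.41, adjusted p = 0.0198) and Notch2 (-1.28, SE 0.26, adjusted p = 0.0478) were lower, and so was Bmp2 (-3.33, SE 0.59, adjusted p = 0.0454). Hes5 lost its call without Drop-seq (adjusted p = 0.09), Bmp2 without 10X (adjusted p = 0.2), and Dll1 and Notch2 without any of the 3 in turn (adjusted p from 0.075 to 0.19). Ccnd1, a cyclin, stood at 263, 108 and 126 CPM against 652, 248 and 477 and did not pass (-1.47, SE 0.27, adjusted p = 0.115).

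**Figure D5:**
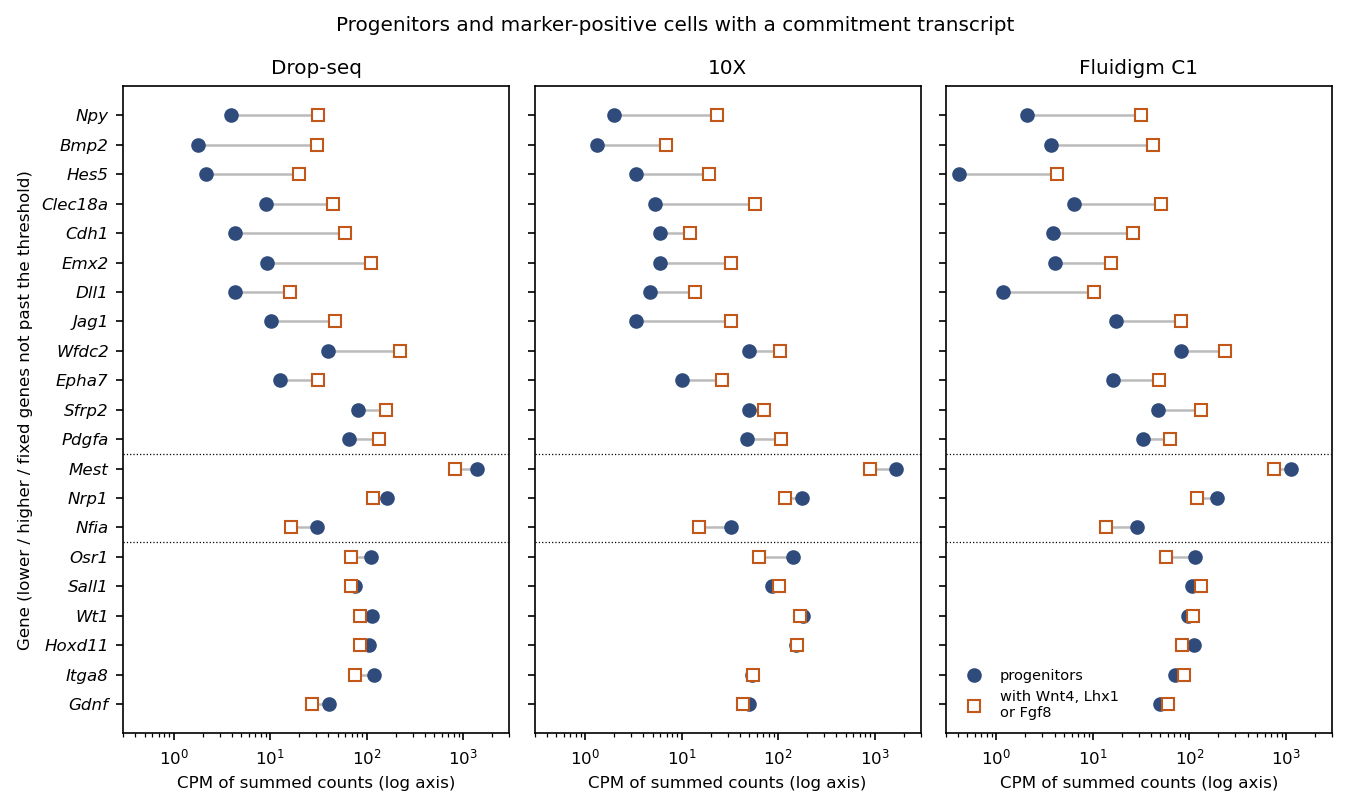
CPM of counts summed per library (log axis) in progenitors (blue points) and in marker-positive cells with Wnt4, Lhx1 or Fgf8 (orange squares). The 12 genes on top are lower in progenitors in each panel, the 3 below are higher, and the 6 at the bottom did not pass the threshold.

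Genes outside the commitment list were lower as well. Emx2 stood at 9.37, 6.01 and 4.02 CPM in progenitors against 112, 32.8 and 15.6 (-2.46, SE 0.30, edgeR adjusted p = 0.00544), a call lost without 10X (adjusted p = 0.071). Epha7 stood at 12.6, 10.0 and 16.1 CPM against 31.5, 26.0 and 48.8 (-1.42, SE 0.20, adjusted p = 0.00536), and without 10X its adjusted p was 0.054. Pdgfa was lower by 0.97 on the log2 scale (SE 0.15, adjusted p = 0.00767), but not without Drop-seq (adjusted p = 0.064) or 10X (adjusted p = 0.0501). Wfdc2, a secreted protein of epithelia, stood at 39.3, 49.4 and 81.2 CPM against 223, 104 and 236 (-1.67, SE 0.25, adjusted p = 0.0365). Outside the lists the largest falls were Pou3f1, Crb3, Mt2, 1700011H14Rik, Prss23, Stard10, Dpp4 and Car4, from -2.87 to -1.88. Crb3, a protein of apical polarity, stood at 3.24, 5.34 and 4.53 CPM against 47.7, 13.7 and 20.4 (-2.45, SE 0.33, adjusted p = 0.00536, and 0.053 without Drop-seq), and Mt2, a metallothionein, at 3.602, 3.34 and 7.38 against 34.9, 26.0 and 25.7 (-2.28, SE 0.29, adjusted p = 0.00407). Of these 8 genes, Mt2 alone kept its call whichever library was left out, and 73.5% of its exonic bases lie in another annotated gene.

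Of the 20 genes higher in progenitors than in these neighbours, Mest, an imprinted gene transcribed from the paternal allele, stood at 1377, 1660 and 1138 CPM against 818, 893.5 and 751 (0.81, SE 0.12, adjusted p = 0.00767 in edgeR). It was higher in progenitors of each library, but without 10X its adjusted p was 0.15, and 23.1% of its exonic bases overlap Copg2. Against all other cells Mest did not pass (0.44, SE 0.12, adjusted p = 0.0642). Nrp1, a receptor of semaphorins and VEGF, stood at 162, 179 and 191 CPM against 115, 118 and 119 (0.65, SE 0.10, adjusted p = 0.00767), and was not past the threshold without Drop-seq or without 10X (adjusted p = 0.0846 and 0.0849). Nfia, a nuclear factor I family member, stood at 30.3, 32.7 and 28.5 CPM against 16.6, 15.1 and 13.5 (1.09, SE 0.20, adjusted p = 0.0295), and lost its call without Drop-seq, 10X or C1 (adjusted p = 0.1, 0.21 and 0.051). Also higher outside the lists were Atp2b4, Ifnar2, Ldb2, Emilin1, Il33 and Ifitm1, with log2 fold changes from 1.08 to 2.81 and adjusted p from 0.0158 to 0.0419. Nfia and each of these 6 lost its call when at least 1 library was left out. Low-level genes among them rest on few counts in the 64 10X and 39 C1 cells with a commitment transcript.

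The fixed progenitor genes were not told apart from these neighbours. Gdnf stood at 40.3, 50.1 and 49.98 CPM in progenitors against 26.8, 43.8 and 59.4 (0.19, SE 0.20, edgeR adjusted p = 0.777). It was higher in progenitors of Drop-seq and 10X and lower in those of C1. Wt1 (0.16, SE 0.18), Sall1 (-0.07, SE 0.22), Pax2 (-0.20, SE 0.30), Uncx (0.02, SE 0.43), Hoxd11 (0.30, SE 0.18), Itga8 (0.18, SE 0.24) and Bmp7 (0.16, SE 0.23) had adjusted p from 0.565 to 0.993. Osr1 stood at 110, 144 and 114 CPM against 69.4, 62.9 and 56.9, higher in each library (1.04, SE 0.43, adjusted p = 0.456). These misses do not show that the levels were alike. The markers of the rule, given with no test, were 1.23- to 1.99-fold higher in progenitors in the fit. Cited1 stood at 573, 775 and 1420 CPM against 340, 437 and 659, and Six2 at 96.2, 184 and 195 against 58.3, 157 and 137. Spock2 was the exception in C1, at 24.8 CPM in progenitors and 28.4 in the neighbours.

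Progenitors with Cited1 detected were last compared with those without, since Cited1 marks the earliest of them. Only 53, 11 and 6 progenitors lacked it in Drop-seq, 10X and C1. No gene of 8791 passed in edgeR (0.0%), with 251 at an unadjusted p under 0.05, and DESeq2 passed 0 as well, whereas limma voom passed 285. Six2, a gene of the rule, stood at 96.0, 188 and 196 CPM with Cited1 and at 97.2, 130 and 172 without. Gdnf stood at 37.6, 49.8 and 49.5 CPM with Cited1 and at 60.8, 54.3 and 64.2 without (-0.38, SE 0.40, adjusted p = 0.96). As CPM it was lower with Cited1 in each library, but after scaling the 10X log2 ratio was 0.18 and the others -0.65 and -0.36. Mest stood at 1412, 1671 and 1148 CPM with Cited1 against 1115, 1487 and 819 (0.39, SE 0.13, adjusted p = 0.96). The group of 6 C1 cells limits what this comparison can show.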

How the data were processed

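The 3 libraries hold RNA of single cells from E14.5 wild-type mouse kidney. The authors deposited raw counts per gene and cell, UMIs for Drop-seq and 10X and reads for Fluidigm C1. Per the submitters' processing notes, Bowtie2 2.2.7 aligned Drop-seq and C1 reads and Cell Ranger 1.3.0 processed 10X, on mm10; the sources used here do not give the counting tool, its use of strand or the annotation. The extraction protocol in the labels describes Drop-seq for all 3 samples. Libraries held 17968883 UMIs (Drop-seq), 18113966 UMIs (10X) and 173799153 reads (C1), and reads without molecular identifiers are not independent molecules. The deposited key lists 1580 C1 cells, of which 562 HT and 332 E14 cells are in the table.

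Cells with 500 or more genes were kept (36 Drop-seq and 43 10X barcodes were not), counts were summed per library and class over 17864 shared symbols, and sums were tested with edgeR 4.0.16 (TMM, filterByExpr, robust quasi-likelihood, library as block, R 4.3.3), with Benjamini-Hochberg adjustment that left out the 9 genes of the rule. The fits had 2, 4 and 2 residual degrees of freedom. SE is the log2 fold change over the square root of F. Intervals are exact binomial or Poisson at 95%. Doublets and high-mitochondrial cells were kept in the main analysis. In an alternative, called doublets were removed from 10X and C1 and cells over 20% mitochondrial counts from 10X; the caller marked only 5 Drop-seq cells, which were kept, no Drop-seq cell was over that limit and the C1 table lists 0 mitochondrial genes. On simulated data, 182, 174 and 108 of 200 genes changed 4-fold were recovered in the comparisons with all other cells, with the neighbours and by Cited1 (12640, 12761 and 8084 genes). In each, 6 unchanged genes were called. The changed genes were drawn from those of higher fitted counts and changed alike in every library. Recovery therefore does not cover low-level genes or effects that differ between platforms. Alternatives used DESeq2 1.42.0, limma 3.58.1 voom, other filters, scalings and rules, and left out each library. Genes named were a fixed set, up to 5 per list and direction by fold among those past the threshold and in 1 direction in all libraries, up to 2 of the highest level that did not pass, and 8 per direction outside the lists. The members and lists were chosen with earlier results of these data known. A few genes that the rule would name are not reported here. Loci are from GENCODE M21.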

Additional observations from a re-analysis of the deposited data

How the results depend on the processing

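The reported fits have the library as a block, which pairs the sums of its classes; the labels give no replicate numbers. For progenitors against all other cells, RLE scaling, no filter, DESeq2, thinning, equal weight for each cell, 1000 genes per cell, removal of doublets (10X and C1) and high-mitochondrial cells (10X), and 4 or 2 markers kept both counts within 1.5 times. limma voom gave 2220 higher and 2171 lower, no library block 0 and 0, separate C1 name groups 279 and 438, a C1 cutoff of 1 read 25 and 136, and of 100 reads 22 and 62. With C1 HT cells alone 410 were higher, and with E14 cells alone 182 were higher and 290 lower. Leaving out 1 library gave 223 to 634 higher and 417 to 1101 lower. Alas2 turned to 0.443 with 2 markers. The HT, E14 and highest-barcode alternatives were added after seeing the data.

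Against cells with Wnt4, Lhx1 or Fgf8 the counts of higher genes were 35 without filter, 53 by DESeq2, 457 by voom, 10 after thinning, 13 with cells weighted equally, 1 with 4 markers, 98 with 2, 33 at 1 C1 read, 0 at 100 and 7 with HT alone. Lower genes were 162 by DESeq2, 591 by voom, 48 after thinning, 10 with 4 markers, 144 with 2 and 1 at 100 reads. No block, separate name groups and E14 alone gave 0 in both directions. Leaving out 1 library gave 1 to 18 higher and 28 to 129 lower. By Cited1, no filter gave 2, voom 285, 100 reads 8, and leaving out 1 library 2 to 6.

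Genes that did not pass there changed sign. Gdnf had -0.0956 by voom, -0.0608 with name groups and -0.0348 with E14 alone, and -0.0385 to 0.491 with 1 library left out. Sall1 had 0.0615 with E14, and -0.219 to 0.0651 with 1 library left out. Wt1 had -0.0926 with name groups, -0.0339 thinned, -0.00193 with 2 markers and -0.0991 with E14, and -0.00768 to 0.335 with 1 library left out. Uncx had -0.0129 by RLE, -0.0295 by DESeq2, -0.0664 with name groups, -0.0563 with cells weighted equally, -0.190 with 2 markers, -0.212 at 1 read, -0.129 at 100, -0.0849 without the 5 highest barcodes and -0.121 with E14, and -0.0286 to 0.0388 with 1 library left out. Itga8 had -0.0718 by voom, -0.232 with name groups, -0.0478 thinned and -0.309 with E14, and -0.155 to 0.497 with 1 library left out. Bmp7 had -0.0326 with name groups, -0.175 thinned and -0.0947 with E14.

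The Drop-seq share was 12.7% with 4 markers, 23.8% with 2 and 14.8% thinned. The 10X share was 6.31% and 9.59%. The C1 share was 8.39% and 28.7%, 24.5% at 1 read, 2.01% at 100 and 2.46% thinned. The cause of these shifts was not tested.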
